A study of Arabidopsis thaliana with 16 samples.

Results

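The response of sid2 leaves of Arabidopsis thaliana to avrB was set against that of wild type Col-0. For each gene, the log2 change from untreated leaves to leaves taken 6 h after avrB was computed in sid2 and in Col-0, and the Col-0 change was subtracted from the sid2 change. The comparison was chosen by its samples: it uses the 8 arrays labelled sid2 or Col-0 among 16 arrays of the series, 2 for each of sid2 after avrB, untreated sid2, Col-0 after avrB and untreated Col-0. The other 8 arrays hold the same states of the mutants atgsnor1-3 and atgsnor1-1. All leaves came from 4-week-old plants, and RNA was measured on the 1-colour Affymetrix ATH1 array. The labels name the mutants without further alleles, name avrB without a strain or dose, and carry no time for untreated leaves. Untreated leaves and not a mock inoculation were the control, so each response also holds what the inoculation itself did and, if harvest hours differed, their effect.

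Salicylic acid is a plant hormone of defence. The gene named in sid2 encodes isochorismate synthase, which makes most of the salicylic acid that leaves accumulate on infection. AvrB is an effector protein of Pseudomonas syringae that Arabidopsis senses through the resistance protein RPM1, which guards the host protein RIN4, and its recognition sets off a calcium influx, defence gene expression and local cell death. Leaves without pathogen also carry a basal level of salicylic acid that keeps part of the defence genes expressed. The GSNOR1 gene encodes S-nitrosoglutathione reductase, whose activity is known to be lost in atgsnor1-3 and raised in atgsnor1-1.

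A positive difference below means that the response was higher in sid2 than in Col-0. Values are log2 differences ± SE from a limma model of all 16 arrays (n = 2 arrays per group), and signals are the deposited linear values. Statements on which arrays were high, low or apart refer to the 8 arrays of sid2 and Col-0 unless another mutant is named. A call required a limma adjusted p under 0.05 together with a difference of 1 or more in size. Of 13647 tested probe sets, 355 were called (2.6%), 262 with a higher (1.92%) and 93 with a lower response in sid2 (0.681%). The median difference over all tested was -0.02. Among the called probe sets, 113 of the higher and 46 of the lower carry 1 named locus. The call held without any 1 of the 8 arrays for 130 of the higher and 26 of the lower probe sets, and no called difference changed its sign when 1 array was left out. The same arrays made the calls, so a kept sign was likely beforehand. The p-values set each difference against the spread between arrays of the same group. Whether both arrays of a group came from separate plants is not in the labels, so that spread may be technical.

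The median signal of the 8 arrays lay between 33.4 and 39.2 units, and 34.9% to 40.6% of their probe sets lay below 20.2 units, the filter level applied to the mean over all arrays. Across probe sets, which are not independent replicates, the arrays of a sid2 or Col-0 group correlated with r between 0.934 in untreated Col-0 and 0.972 in sid2 after avrB. Each untreated Col-0 array correlated best with an array of untreated atgsnor1-1. The lowest r within a group of the series was 0.920, in untreated atgsnor1-3. Its array 1 correlated best with array 1 of untreated sid2 (r = 0.931). The isochorismate synthase gene was not analysed here, so the sid2 label was not checked against it. RCA, which encodes Rubisco activase and marks green leaf tissue, stood at 3256 and 3327 units in sid2 after avrB, 6236 and 6003 units in untreated sid2, 2964 and 3960 units in Col-0 after avrB and 6403 and 5255 units in untreated Col-0, and untreated sid2 and untreated Col-0 overlapped. The other tested genes of carbon fixation had higher signals in untreated sid2 without overlap, PRK at 4900 and 4504 units in untreated sid2 against 3616 and 3015 units in untreated Col-0, and SBPASE at 2521 and 2321 units in untreated sid2 against 1541 and 1858 units in untreated Col-0. These untreated levels differed by 0.51 ± 0.16 (limma adjusted p = 0.05, just over the threshold) and 0.52 ± 0.15 (limma adjusted p = 0.037), and their part in the results was not tested. In whole leaves, fewer cells of a type and less RNA per cell cannot be told apart. Of 10 marker genes of leaf cell types only the guard cell gene AT1G22690 was tested, and its difference was -0.55 ± 0.27 (limma adjusted p = 0.406).

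Most of the called differences lay in the untreated leaves. The 262 probe sets with a higher response in sid2 had a median response of 2.84 in sid2 and 1.18 in Col-0. In untreated leaves their median difference of sid2 from Col-0 was -1.72, and 260 of the 262 were lower in sid2. After avrB the median difference was 0.16, and 228 of them lay within 1 of Col-0. By the size of both differences, 192 of the 262 were lower in untreated sid2 by at least 1 and within 1 after avrB, while 12 were within 1 untreated and higher by at least 1 after avrB. The same 8 arrays chose these probe sets, so these medians are a description. Over all 13647 tested probe sets the medians were 0.00 untreated, -0.03 after avrB, -0.16 for the sid2 response and -0.12 for the Col-0 response.

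The 93 probe sets with a lower response in sid2 showed the opposite course at the median. Their median response was -1.80 in sid2 and -0.24 in Col-0. In untreated leaves 87 of the 93 were higher in sid2, with a median difference of 1.15. After avrB their median difference was -0.36, and 77 of them lay within 1 of Col-0. By the size of both differences, 46 of the 93 were higher in untreated sid2 by at least 1 and within 1 after avrB. Another 31 were within 1 in both states. By size alone, 48 of the 93 had a response of -1 or below in sid2 and within 1 in Col-0, and 20 had one of -1 or below in both genotypes. Of the 262, 154 had a response of at least 1 in both genotypes, and 85 had one in sid2 while Col-0 stayed within 1. Responses of opposite sign, each at least 1 in size, occurred in 8 of the 355 probe sets.

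**Figure D1:**
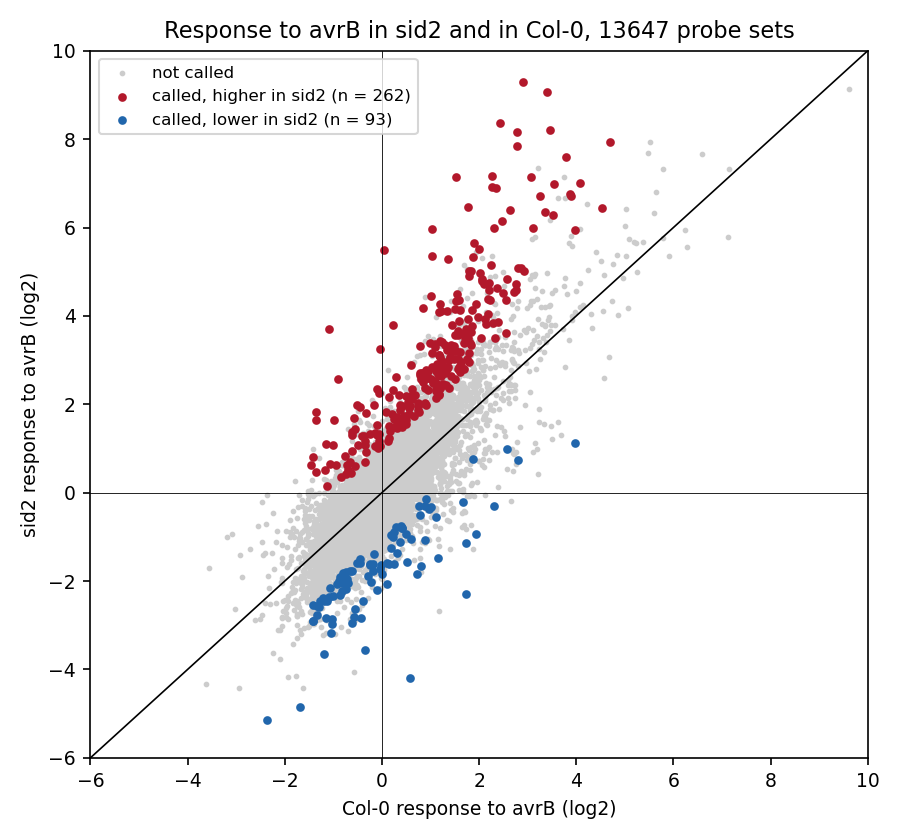
Log2 response to avrB in sid2 (vertical axis) against that in Col-0 (horizontal axis), 1 point for each of 13647 tested probe sets. Red and blue points are the 262 called higher and 93 called lower in sid2, and the diagonal marks equal responses. Red points lie mostly in the upper right, where both genotypes rise and sid2 rises further.

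**Figure D2:**
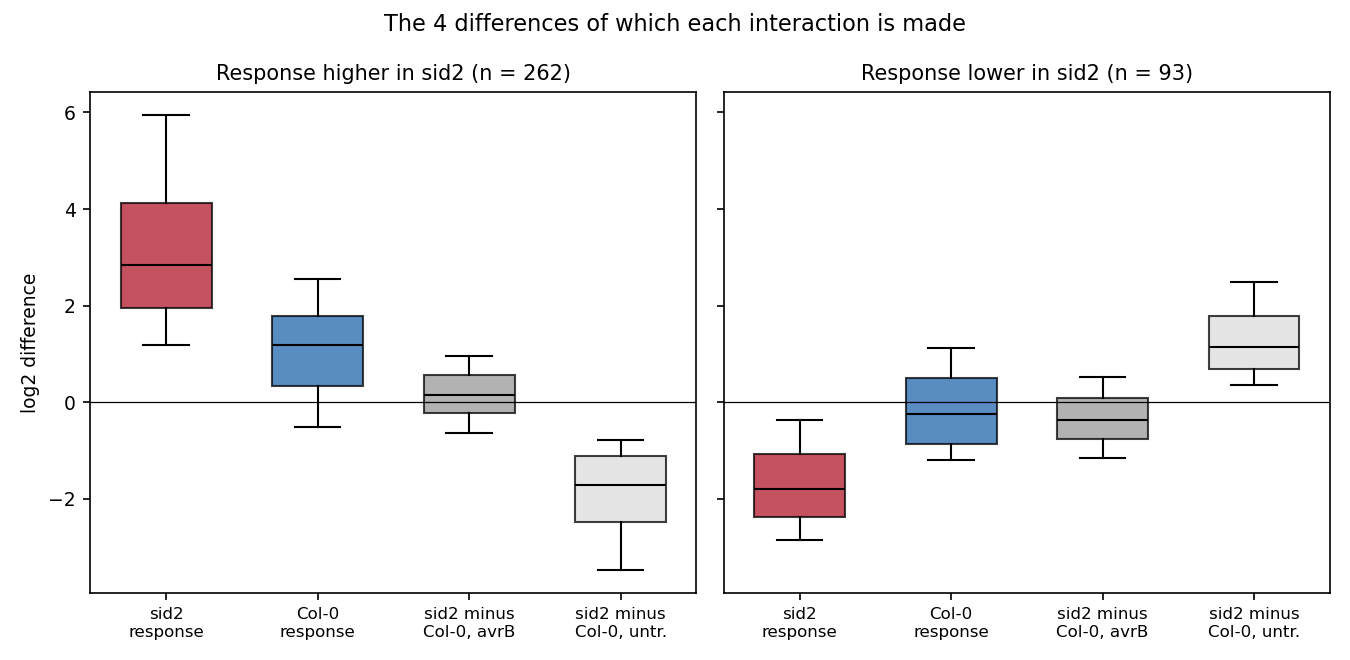
Log2 differences of the 262 probe sets with a higher response in sid2 (left) and the 93 with a lower response (right), untr. standing for untreated. Boxes span the quartiles, lines inside are medians and whiskers run from the 10th to the 90th percentile. In both panels the difference of sid2 from Col-0 lies near 0 after avrB and away from 0 in untreated leaves.

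The largest difference of all named genes was that of AT3G01830, which encodes an EF-hand protein of the calmodulin-like type. Its signal was 1054 and 924 units in sid2 after avrB, 1.38 and 1.82 units in untreated sid2, 728 and 824 units in Col-0 after avrB and 93.8 and 115 units in untreated Col-0. Both untreated sid2 arrays were far below the other sid2 and Col-0 arrays, while the sid2 arrays after avrB lay above those of Col-0. The difference between the responses was 6.39 ± 0.36 (limma adjusted p = 1.3e-07), made of a response of 9.29 ± 0.26 in sid2 and 2.90 ± 0.26 in Col-0. The untreated sid2 signals lie far under the filter level, where a log2 ratio gives the direction more firmly than the size. With a pseudocount of 9.51 units the difference was 3.70.

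AT4G39670, of the glycolipid transfer protein family, had 1097 and 1099.8 units in sid2 after avrB, 1.77 and 2.40 units in untreated sid2, 497 and 510.3 units in Col-0 after avrB and 41.1 and 55.7 units in untreated Col-0. Here sid2 started lowest and ended highest, and no group overlapped another. The difference was 5.66 ± 0.55 (limma adjusted p = 2.91e-05). AT5G08240, whose product has no role known with certainty, took another course: 81.7 and 144 units in sid2 after avrB, 2.11 and 2.76 units in untreated sid2, 129 and 99.0 units in Col-0 after avrB and 122 and 99.4 units in untreated Col-0. Col-0 showed overlapping values in both states, and the untreated sid2 arrays stood apart. Untreated atgsnor1-3 was as low, at 2.86 and 3.40 units. The Col-0 response was 0.04 ± 0.37 and the difference 5.45 ± 0.53 (limma adjusted p = 2.91e-05).

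AT5G52750, which encodes a protein with a heavy-metal-associated domain, followed the same course at signals above the filter level. It had 564 and 422 units in sid2 after avrB, 39.8 and 66.0 units in untreated sid2, 442 and 288 units in Col-0 after avrB and 336 and 399.7 units in untreated Col-0. Of the sid2 and Col-0 arrays the untreated sid2 ones were low, and untreated atgsnor1-3 was lower still at 26.0 and 21.9 units. The difference was 3.29 ± 0.35 (limma adjusted p = 6.8e-05), and it was 3.07 with the pseudocount. Further calls of this size that held without any 1 array were those of the cysteine-rich transmembrane gene AT1G05340 at 5.07 ± 0.51, the acetyltransferase family gene AT2G32030 at 4.94 ± 0.53 and AT1G78410, a VQ-motif gene, at 3.93 ± 0.36. AT2G32140, whose product carries the TIR domain of many resistance proteins, stood at 4.90 ± 0.75. With the pseudocount these were 2.58, 3.04, 3.05 and 3.04, and all stayed called.

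**Figure D3:**
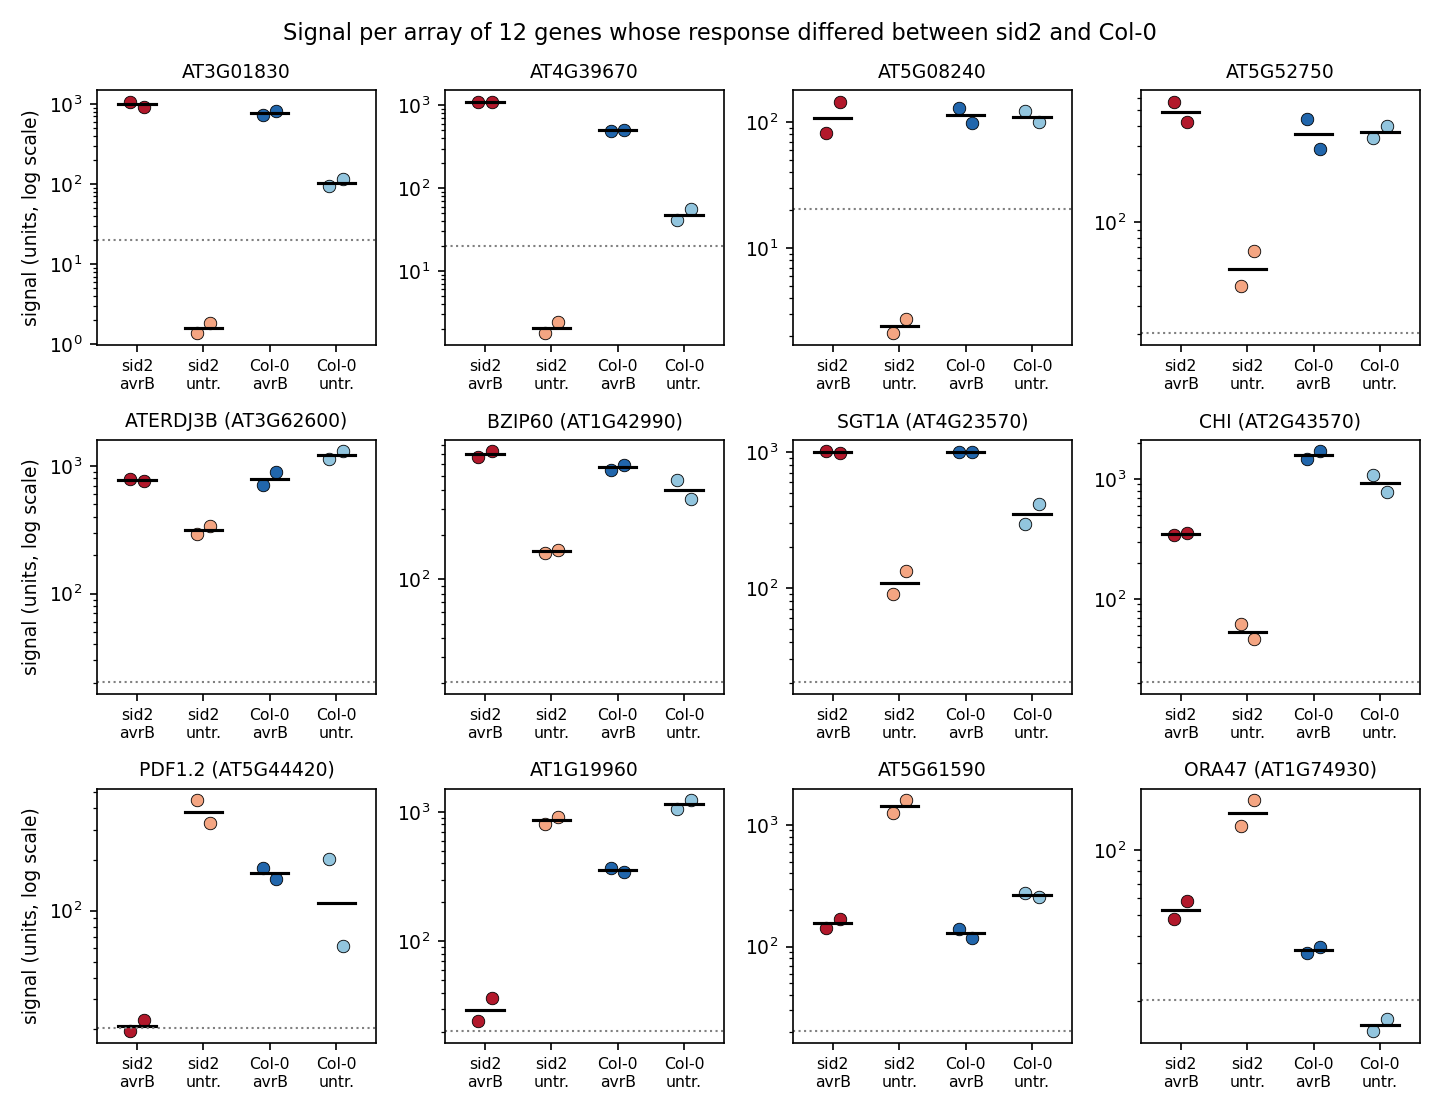
Signal of 12 called genes in each of the 8 arrays, on log axes with a range of their own, points being arrays, bars their geometric means and untr. standing for untreated. The dotted line is the filter level of 20.2 units where it is in range. In AT3G01830, AT4G39670 and AT5G08240 the untreated sid2 arrays lie below it, and in ORA47 the untreated Col-0 arrays do.

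Other genes with a mean of at least 50 units in each of the 4 groups had smaller differences. SGT1A, a co-chaperone of resistance proteins and the only tested gene in the list of effector recognition, had 1019.6 and 981 units in sid2 after avrB, 90.1 and 132 units in untreated sid2, 1007 and 1002 units in Col-0 after avrB and 295 and 417 units in untreated Col-0. The genotypes overlapped after avrB, and untreated sid2 lay below untreated Col-0. The difference was 1.68 ± 0.28 (limma adjusted p = 0.00279). AT1G66880, a protein kinase gene, stood at 2.27 ± 0.32 (limma adjusted p = 0.000838), with 509 ± 17.3 units in sid2 after avrB, 51.8 ± 21.2 in untreated sid2, 741 ± 17.3 in Col-0 after avrB and 349 ± 5.24 in untreated Col-0 (mean ± SD). UGT87A2, a glycosyltransferase known for its effect on flowering time, stood at 2.09 ± 0.34 (limma adjusted p = 0.00224). AT3G60420, AT2G18690 and AT4G29520 followed at 2.13 ± 0.34, 2.25 ± 0.40 and 2.64 ± 0.43, and these calls held without any 1 array. AT4G29520 differed in course, with responses of 1.65 in sid2 and -0.99 in Col-0.

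Genes of endoplasmic reticulum folding serve the secretory route through which receptors and secreted defence proteins pass. Of the 5 tested members of this list 2 were called higher and none lower, against 1.92% and 0.681% of all tested, and the median difference was 1.14, against -0.02 over all. Gene lists were chosen with earlier results of these data known, so list shares and medians here and below are a description. ATERDJ3B, an endoplasmic reticulum J-protein that assists the chaperone BiP, had 794 and 761 units in sid2 after avrB, 293 and 336 units in untreated sid2, 708 and 899 units in Col-0 after avrB and 1136 and 1311 units in untreated Col-0. The untreated sid2 arrays were lowest and the untreated Col-0 arrays highest, while the avrB arrays of both genotypes overlapped. Its response was 1.31 ± 0.19 in sid2 (limma adjusted p = 3.64e-05) and -0.61 ± 0.19 in Col-0 (limma adjusted p = 0.0235), and their difference was 1.92 ± 0.26 (limma adjusted p = 0.000696). BZIP60, a factor that switches on chaperone genes under folding stress, had 667 and 732 units in sid2 after avrB, 150.4 and 159 units in untreated sid2, 544 and 594 units in Col-0 after avrB and 468 and 345 units in untreated Col-0. Again the untreated sid2 arrays were the low ones of the 8, untreated atgsnor1-3 lay lower still at 126 and 148 units, and the difference between sid2 and Col-0 was 1.68 ± 0.24 (limma adjusted p = 0.00108). The calreticulin gene CRT1b stood at 1.14 ± 0.35 and the stress sensors BZIP28 and BZIP17 at 0.97 ± 0.32 and -0.33 ± 0.36, none of them called (limma adjusted p = 0.106, 0.152 and 0.799).

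Of 25 genes in the list of salicylic acid response, 5 were tested, 1 was called higher and none lower, against 1.92% and 0.681% of all tested, and the median was 1.08, against -0.02 over all. CHI, a chitinase gene, had 342 and 351 units in sid2 after avrB, 61.2 and 46.1 units in untreated sid2, 1476 and 1708 units in Col-0 after avrB and 1084 and 781 units in untreated Col-0. Both sid2 groups lay below both Col-0 groups, with no overlap. Its response was higher in sid2 by 1.92 ± 0.32 (limma adjusted p = 0.00279), yet its level after avrB was still lower in sid2 by a log2 difference of -2.20 ± 0.23 (limma adjusted p = 3.47e-05). AT5G03350, a lectin-like gene known to depend on salicylic acid, had 79.6 ± 9.09 units in sid2 after avrB, 292 ± 158 units in untreated sid2, 2613 ± 312 units in Col-0 after avrB and 4464 ± 550.1 units in untreated Col-0 (mean ± SD). Its level differed from Col-0 by -5.04 ± 0.26 after avrB and -4.04 ± 0.26 untreated, while the difference between the responses was -0.99 ± 0.37 and not called (limma adjusted p = 0.213).

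UGT76B1, which glycosylates salicylic and isoleucic acid, also had lower means in sid2 in both states, with 123 ± 25.4 units in sid2 after avrB, 4.16 ± 2.65 in untreated sid2, 913 ± 174 in Col-0 after avrB and 51.6 ± 26.7 in untreated Col-0 (mean ± SD). The difference between its responses was 0.80 ± 1.23 (limma adjusted p = 0.866). The glutaredoxin gene GRX480 stood at 1.08 ± 0.41 and the transcription factor gene WRKY53 at 1.18 ± 0.38, neither called (limma adjusted p = 0.228 and 0.138). In the list of salicylic and pipecolic acid synthesis 2 of 17 genes were tested. AT5G52810, known as SARD4 and needed to make the immune signal pipecolic acid, had 424 and 449 units in sid2 after avrB, 76.3 and 48.5 units in untreated sid2, 767 and 725 units in Col-0 after avrB and 346 and 385 units in untreated Col-0. Its sid2 levels lay below those of Col-0 in the same state, and the difference between the responses was 1.81 ± 0.28 (limma adjusted p = 0.00196). SAG101, a partner of EDS1 in immune signalling, stood at 0.87 ± 0.45 and was not called (limma adjusted p = 0.435).

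Of 5 tested genes of early immune signalling 1 was called higher (1.92% of all tested), and the median was 0.66 with all 5 above 0. PUB24, of a trio of ubiquitin ligases that restrain this signalling, had 370.3 and 293 units in sid2 after avrB, 41.5 and 53.8 units in untreated sid2, 342 and 379.8 units in Col-0 after avrB and 145 and 164 units in untreated Col-0. The groups overlapped after avrB and were apart before it, and the difference was 1.58 ± 0.28 (limma adjusted p = 0.00444). Its partners PUB22 and PUB23 stood at 0.66 ± 0.90 and 0.22 ± 0.65, and the receptor-associated kinase gene BIK1 at 0.90 ± 0.27, none called (limma adjusted p = 0.844, 0.943 and 0.0932).

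Calmodulin-like proteins bind the calcium that enters cells on recognition. Of 6 tested members of the family, taken by symbol, 2 were called higher and none lower, against 1.92% and 0.681% of all tested, with a median of 0.89. The called EF-hand genes AT3G01830, described above, and AT3G47480 did not match by symbol and are not among these 6. CML37 had 231 and 226 units in sid2 after avrB, 0.778 and 4.64 units in untreated sid2, 137 and 136 units in Col-0 after avrB and 24.5 and 33.0 units in untreated Col-0. The sid2 arrays were the lowest before avrB and the highest after it, and the difference was 4.65 ± 0.90 (limma adjusted p = 0.00796), or 2.36 with the pseudocount. CML41 stood at 1.82 ± 0.42 (limma adjusted p = 0.0271). That call was lost when any 1 array other than array 1 of untreated sid2 was left out, with limma adjusted p between 0.0521 and 0.129. CML42, CML43 and CML30 were not called, at 0.59, 0.50 and -0.18, and neither was CML38 (limma adjusted p = 0.644).

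Both tested genes of phenylpropanoid and scopoletin synthesis were called higher, against 1.92% of all tested, from signals of a few units in untreated sid2. AT3G13610, the feruloyl-CoA hydroxylase that leads to scopoletin, had 65.7 and 51.9 units in sid2 after avrB, 1.19 and 1.75 units in untreated sid2, 173 and 199 units in Col-0 after avrB and 58.4 and 43.6 units in untreated Col-0. The sid2 arrays after avrB overlapped those of untreated Col-0, and untreated sid2 lay far below. The difference was 3.46 ± 0.68 (limma adjusted p = 0.00891), but 0.93 with the pseudocount (limma adjusted p = 0.292). This call was also lost without array 1 of sid2 after avrB (0.0616) or array 1 of Col-0 after avrB (0.0624, limma adjusted p). CCR2, a cinnamoyl-CoA reductase gene of lignin synthesis, stood at 2.84 ± 0.71 (limma adjusted p = 0.043), or 1.72 with the pseudocount. That call was lost when any 1 array other than array 2 of untreated sid2 and array 1 of untreated Col-0 was left out, with limma adjusted p between 0.125 and 0.18.

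NDB2, an NADH dehydrogenase of the outer face of the inner mitochondrial membrane, was called at 1.55 ± 0.32 (limma adjusted p = 0.0118). It was the only called gene of 3 tested for mitochondrial and oxidative stress, against 1.92% called higher over all tested. Its call was lost without array 1 of sid2 after avrB (0.0737), array 2 of Col-0 after avrB (0.058) or array 2 of untreated Col-0 (0.0577, limma adjusted p). The zinc finger gene STZ stood at 0.73 ± 0.28 and was not called (limma adjusted p = 0.228). Among 4 tested xyloglucan endotransglucosylases, which remodel cell walls, XTH18 was called at 4.75 ± 1.03 (limma adjusted p = 0.0183), while 1.92% of all tested were called higher. It had 410.4 and 608 units in sid2 after avrB, 2.35 and 1.23 units in untreated sid2, 103 and 151 units in Col-0 after avrB and 11.2 and 11.6 units in untreated Col-0. No group overlapped another. This call was lost when any 1 array other than array 1 of untreated sid2 and array 1 of untreated Col-0 was left out, with limma adjusted p between 0.0544 and 0.106, and the difference was 2.81 with the pseudocount.

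Genes of the jasmonate and ethylene branches of defence, which salicylic acid is known to restrain, were few among those tested. Of the 3 in the list of ethylene and defensin genes 1 was called lower, against 0.681% of all tested, and the median was -3.85. PDF1.2, a plant defensin that jasmonate and ethylene induce together, had 19.5 and 22.6 units in sid2 after avrB, 449 and 327 units in untreated sid2, 179 and 154 units in Col-0 after avrB and 200.5 and 62.0 units in untreated Col-0. It was highest in untreated sid2 and lowest in sid2 after avrB, while the Col-0 states overlapped and the untreated Col-0 arrays lay far apart. The difference was -4.77 ± 1.08 (limma adjusted p = 0.0244), and the call was lost when any 1 array other than array 1 of untreated Col-0 was left out, with limma adjusted p between 0.0526 and 0.12. Its close copy PDF1.2b stood at -3.85 ± 1.34 and was not called (limma adjusted p = 0.177). Near-identical copies may share probe signal, so these values are not independent. EIN3, the central transcription factor of ethylene signalling, stood at -0.07 ± 0.21.

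ORA47, a transcription factor that activates jasmonate synthesis genes, was the only called gene of 2 tested in the jasmonate list, against 0.681% of all tested called lower. Its signal was 48.0 and 58.3 units in sid2 after avrB, 129 and 170.1 units in untreated sid2, 33.6 and 35.8 units in Col-0 after avrB and 14.6 and 16.6 units in untreated Col-0. The groups did not overlap, and untreated sid2 was highest and untreated Col-0 lowest. The response was -1.49 ± 0.32 in sid2 and 1.16 ± 0.32 in Col-0, with a difference of -2.64 ± 0.45 (limma adjusted p = 0.00349). The untreated levels differed by 3.25 ± 0.32 (limma adjusted p = 3.71e-06). Both untreated Col-0 signals lie under the filter level of 20.2 units, and the difference between the responses was -2.15 with the pseudocount. JMT, which methylates jasmonic acid, stood at -0.40 ± 0.72 and was not called (limma adjusted p = 0.892).

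Of the named genes, AT1G19960 showed the largest negative difference that held without any 1 array. It had 24.1 and 36.5 units in sid2 after avrB, 811 and 912 units in untreated sid2, 368 and 340.4 units in Col-0 after avrB and 1055 and 1234 units in untreated Col-0. It differed between the genotypes by -3.58 ± 0.26 after avrB and by -0.41 ± 0.26 in untreated leaves. Its difference was -3.17 ± 0.36 (limma adjusted p = 0.000126). AT5G22580, of the stress-responsive A/B barrel family, had 142 and 148 units in sid2 after avrB, 591 and 629.5 units in untreated sid2, 409 and 406 units in Col-0 after avrB and 419 and 344 units in untreated Col-0. The Col-0 states overlapped and sid2 was lowest after avrB, and the difference between the responses was -2.18 ± 0.32 (limma adjusted p = 0.00108).

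AT5G61590, known as DEWAX, an ethylene response factor that represses wax synthesis, had 143 and 169.7 units in sid2 after avrB, 1253 and 1597 units in untreated sid2, 141 and 117 units in Col-0 after avrB and 277 and 256 units in untreated Col-0. Untreated sid2 stood high above the other groups, and the difference was -2.13 ± 0.28 (limma adjusted p = 0.000493). AT1G23390, a Kelch-repeat F-box gene whose product is known to target chalcone synthase, had 483 and 368 units in sid2 after avrB, 1072 and 1087 units in untreated sid2, 390.4 and 368 units in Col-0 after avrB and 266 and 348 units in untreated Col-0. Untreated sid2 stood high, and the genotypes overlapped after avrB. Its difference was -1.67 ± 0.24 (limma adjusted p = 0.00108). AT3G19680, the tropinone reductase-like AT2G29290 and AT5G07580, of the ethylene response factor family, stood at -2.32 ± 0.34, -1.96 ± 0.33 and -1.82 ± 0.29, and GSTU27, a glutathione S-transferase gene, at -1.15 ± 0.20. These 4 calls held without any 1 array.

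Called members of other families are given with the share over all tested, 1.92% higher and 0.681% lower. Of 28 tested glycosyltransferases 2 were called, UGT87A2 higher and GT72B1, known to conjugate monolignols and xenobiotics, lower at -1.28 ± 0.27 (limma adjusted p = 0.0135). The family's median was -0.20. The call of GT72B1 was lost without array 1 of sid2 after avrB (0.0859), array 1 of untreated sid2 (0.0743), array 2 of Col-0 after avrB (0.0886) or array 1 of untreated Col-0 (0.0513, limma adjusted p). Of 4 tested peroxidases PRXR1 alone was called, lower at -1.14 ± 0.29 (limma adjusted p = 0.045), and its call was lost when any 1 of the 8 arrays was left out, with limma adjusted p between 0.0672 and 0.153. Of 7 glutathione S-transferases GSTU27 alone was called.

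In several groups no member was called. These were 6 WRKY factors (median 0.25), 11 cytochrome P450 genes (-0.13), 7 expansins (-0.08), 11 autophagy genes (0.02) and 7 photosystem and light-harvesting genes (0.04). The called expansin-like gene EXLA1, given further below, was not matched to the expansins by symbol. Each of the photosystem genes had a negative response in both genotypes, and their differences ran from -0.33 to 0.49. LHCB4.2, of the light-harvesting antenna, had 1185 ± 41.3 units in sid2 after avrB, 4506 ± 521 in untreated sid2, 1511 ± 53.2 in Col-0 after avrB and 4574 ± 389.95 in untreated Col-0 (mean ± SD), and its responses differed by -0.33 ± 0.27. All 4 tested genes of abscisic acid and cold response had differences below 0, with a median of -0.73. COR15A, a chloroplast protein that protects membranes in the cold, had the lowest adjusted p of them, at -0.94 ± 0.28 (limma adjusted p = 0.0948). All 5 beta-tubulins were below 0 as well, with a median of -0.74 and the lowest adjusted p in TUB6, at -0.74 ± 0.22 (limma adjusted p = 0.0996). WRKY6, a senescence-associated factor, had nearly equal responses of 3.69 ± 0.38 in sid2 and 3.74 ± 0.38 in Col-0, with a difference of -0.04 ± 0.54. No call was made among 3 genes of carbon fixation (median -0.39), 3 of chlorophyll synthesis (-0.30), 2 of aliphatic glucosinolate synthesis (-0.40) and 2 of auxin response (-0.37). None was made in the single tested genes of tryptophan synthesis (AT2G04400, 0.57), flavonoid synthesis (DFR, -0.04), heat shock (AT5G51440, 2.60), the clock (GI, -0.39) and the NAC factors (NAC014, 0.61). The called chaperone gene Hsp70-2, given further below, lies outside the heat shock list.

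**Figure D4:**
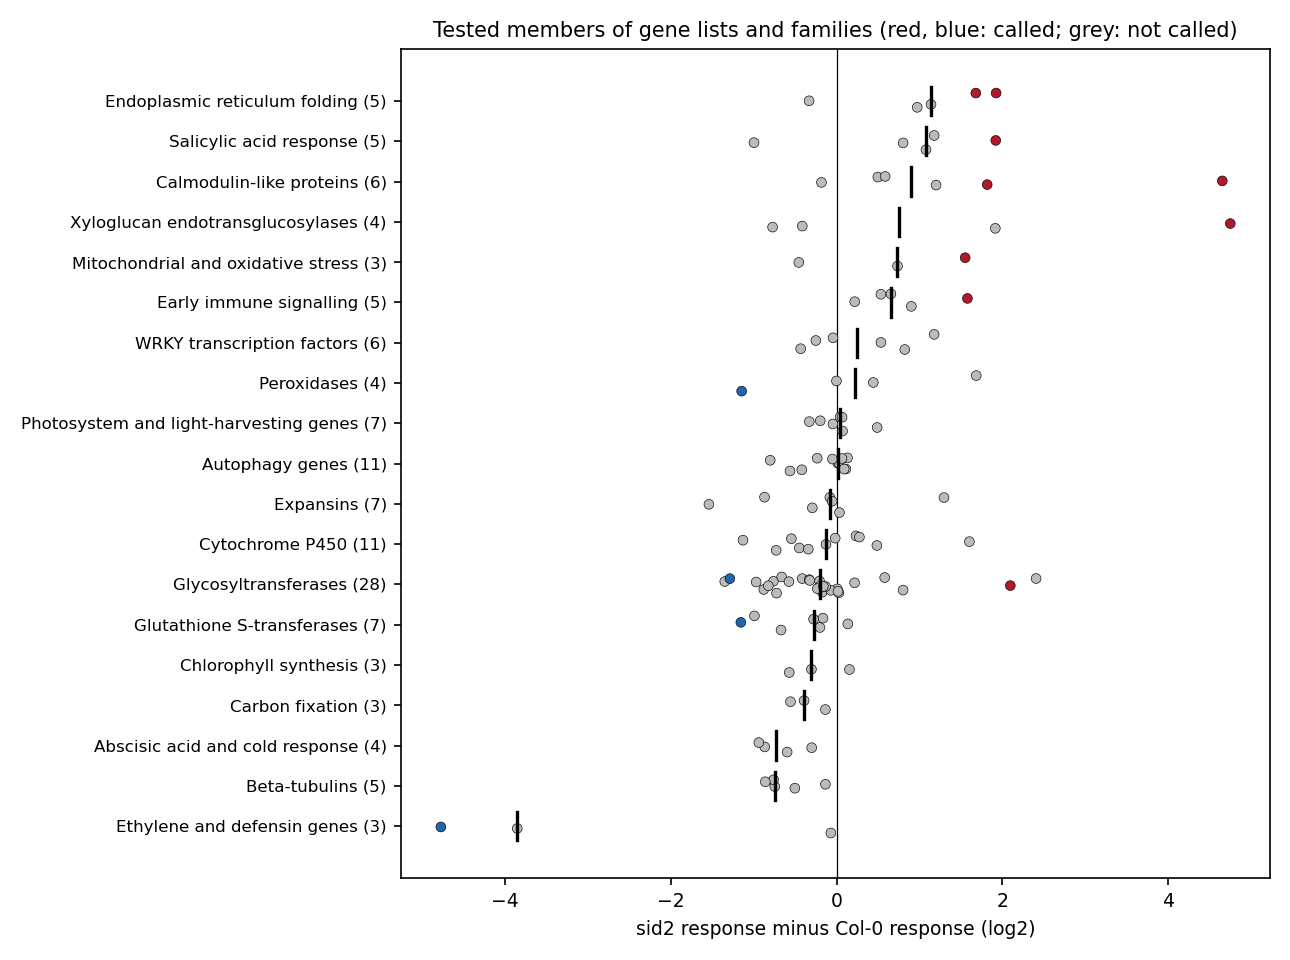
Difference between the sid2 and Col-0 responses for each tested member of the gene lists and families with at least 3 tested members (their number in brackets), in order of the median (black bars). Red and blue points are called genes. The lists of endoplasmic reticulum folding and salicylic acid response have the highest medians, 1.14 and 1.08, and the ethylene and defensin genes the lowest, -3.85. That lowest median is the value of PDF1.2b, which was not called and is a close copy of PDF1.2. The lists were chosen with earlier results of these data known.

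The difference that chose the called probe sets held no array of the other mutants. Those arrays did enter the estimate of the spread and the mean signal used as the filter. The 262 with a higher response in sid2 had median signals of 449 and 444 units in sid2 after avrB and 60.1 and 60.1 units in untreated sid2. In atgsnor1-3 the medians were 414 and 398 units after avrB and 46.2 and 50.2 units untreated, and in atgsnor1-1 they were 493 and 471 units after avrB and 150 and 142 units untreated. Col-0 had 411 and 407 units after avrB and 201 and 215 units untreated. After avrB the range of these medians over all genotypes was narrow. The untreated medians of sid2 and atgsnor1-3 were low, and those of atgsnor1-1 lay between them and Col-0. Single probe sets differed more. After avrB, sid2 minus Col-0 ran from -0.66 to 0.98 between the 10th and 90th percentiles of the 262. In untreated sid2, 22.5% of the 262 had a signal under 20.2 units in each array.

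The 93 with a lower response in sid2 had medians of 105 and 103 units in sid2 after avrB and 327 and 336 units in untreated sid2. In atgsnor1-3 they were 58.4 and 47.8 units after avrB and 220.4 and 209.6 units untreated, in atgsnor1-1 102 and 108 units after avrB and 215 and 207 units untreated, and in Col-0 136 and 131 units after avrB and 166 and 136 units untreated. Among the untreated arrays sid2 stood highest and Col-0 lowest, with the other mutants between them. Over all arrays untreated sid2 stood highest, and atgsnor1-3 after avrB lowest.

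**Figure D5:**
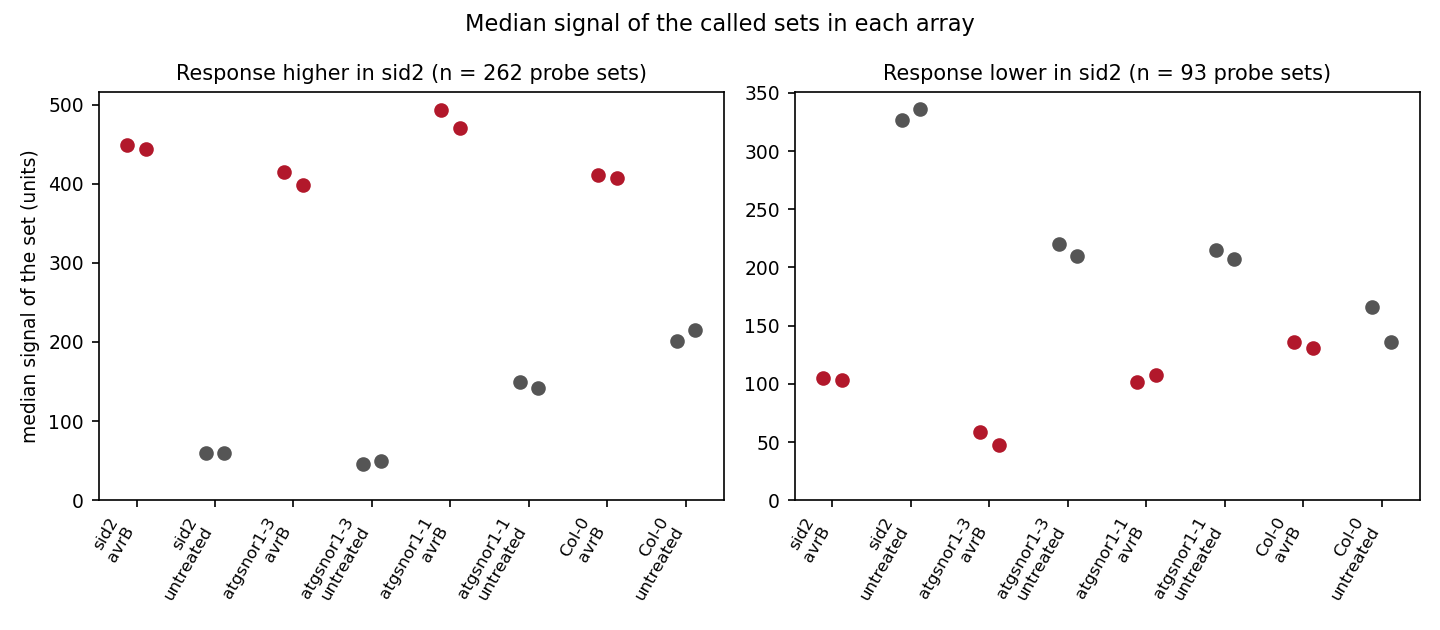
Median signal of the 262 probe sets with a higher response in sid2 (left) and the 93 with a lower response (right) in each of the 16 arrays, on linear axes from 0. Red points are arrays after avrB and grey points untreated arrays. On the left the avrB arrays of all genotypes lie between 398 and 493 units, and the untreated arrays of sid2 and atgsnor1-3 at or below 60.1 units.

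The sid2 response was also tested against those of the other mutants, in comparisons that share the sid2 arrays with the one above. Against atgsnor1-3, 699 probe sets were called (5.12%), 428 higher (3.14%) and 271 lower (1.99%). Against atgsnor1-1, 171 were called (1.25%), 118 higher (0.865%) and 53 lower (0.388%). Leaving out 1 array moved these totals to between 379 and 1045 against atgsnor1-3 and to between 58 and 166 against atgsnor1-1, the lowest without array 1 of sid2 after avrB and array 1 of atgsnor1-1 after avrB. For the 262 the median difference of the sid2 response was -0.15 from atgsnor1-3 and 1.13 from atgsnor1-1. For the 93 these medians were 0.27 and -0.86. Over all tested probe sets they were 0.03 and 0.00. The sid2 arrays in these medians also chose the 262 and the 93. That choice can shift the medians in the direction of the call, so they are a description.

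AT3G01830, the first gene above, had 1382 and 1378 units in atgsnor1-3 after avrB, 0.796 and 1.44 units in untreated atgsnor1-3, 565 and 723 units in atgsnor1-1 after avrB and 37.6 and 32.7 units in untreated atgsnor1-1. The sid2 response differed from that of atgsnor1-3 by -1.05 ± 0.36 (limma adjusted p = 0.104, not called) and from that of atgsnor1-1 by 5.10 ± 0.36 (limma adjusted p = 1.86e-06). Its untreated level was low in sid2 and atgsnor1-3 alike.

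In a few named genes the responses of sid2 and atgsnor1-3 differed. PRXR1 fell less in sid2, with responses of -2.07 ± 0.20 in sid2 and -3.72 ± 0.20 in atgsnor1-3. These differed by 1.65 ± 0.29 (limma adjusted p = 0.0036), and by 1.24 to 2.05 when 1 array was left out. ATERDJ3B responded more in sid2 by 1.18 ± 0.26 (limma adjusted p = 0.0153), a call lost without array 1 of sid2 after avrB (0.0604), array 1 of untreated sid2 (0.0637) or array 2 of atgsnor1-3 after avrB (0.068), by limma's adjusted p. AT5G52810 did so by 1.26 ± 0.28 (limma adjusted p = 0.0159), a call lost without array 2 of sid2 after avrB (0.0604) or array 2 of untreated sid2 (0.0738). BZIP60 stood at -1.02 ± 0.24 (limma adjusted p = 0.0219), and its call was lost without any 1 of the 4 sid2 arrays or array 1 of atgsnor1-3 after avrB (adjusted p up to 0.0919), and by its size of -0.90 without array 1 of untreated atgsnor1-3. The pseudocount also took its size just under 1. AT3G13610 differed by 3.26 ± 0.68 (limma adjusted p = 0.00976), with 9.44 and 23.1 units in atgsnor1-3 after avrB and 2.44 and 5.06 units in untreated atgsnor1-3. Without array 1 of sid2 after avrB its limma adjusted p was 0.0533, and the pseudocount gave 1.71. AT3G19680 had a lower response in sid2 than in either mutant, by -1.69 ± 0.34 against atgsnor1-3 and -2.24 ± 0.34 against atgsnor1-1 (limma adjusted p = 0.00862 and 0.00306). Without array 2 of untreated sid2 the comparison with atgsnor1-3 had a limma adjusted p of 0.0531.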

How the data were processed

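Members and gene lists were chosen with earlier results of these data known. Per the submitters' processing notes, MAS5 and GCOS made the deposited intensity values, with no version given in the sources used here. These are linear, from 0.0236 to 18429.6 units, although the comparison was set out on log2 signals. They were taken to log2 without a pseudocount or further normalization. The 64 control probe sets of 22810 and the dimmest 40% of the rest were left out, which left 13647. Of the probe sets, 13436 were matched to 1 TAIR locus, 503 carry several genes and 8730 none in the annotation used. Of 331 genes in 21 lists, 56 had a matched probe set, and 15 families were taken by symbol. Constitutive genes had none tested, and neither had the families of ethylene response, MYB and ZIM-domain factors as taken by symbol. Genes whose symbols did not match a family are outside it, such as the ethylene response factors AT5G61590 and AT5G07580.

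Group means of all 16 arrays were modelled in limma 3.58.1 under R 4.3.3 (lmFit, contrasts.fit, eBayes with a variance trend, 8 residual degrees of freedom, two-sided), with Benjamini-Hochberg adjustment over all probe sets. The test was checked on simulated data. The number of arrays limits the precision, most of all for signals of a few units. Because its title carries both replicate numbers, 1 array of sid2 after avrB was numbered 2 to follow the array numbered 1.

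Named genes are the 12 called of largest difference of each sign, the 8 largest of each sign with a mean of at least 50 units in each group, up to 4 called members per list or family, called genes with responses of opposite sign, and list members of known role as values. The text gives those with a known role or a large change. Alternatives were no filter, the dimmest 60% left out, quantile normalization, no variance trend, an added 9.51 units before log2 (25th percentile of signals), the replicate number as a block, only the 8 arrays, no size minimum, and each array left out. A planned search of promoters for motifs was not run, and promoter sequences were not used here. Python 3.11.15 with pandas 2.3.3 and matplotlib 3.10.9 drew the figures.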

Additional observations from a re-analysis of the deposited data

Results flagged for a closer look

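The results below were picked out because the response to avrB differed between genotypes in a direct test of that difference. Between sid2 and Col-0 this held for 355 probe sets, between sid2 and atgsnor1-3 for 699 and between sid2 and atgsnor1-1 for 171, by limma's test over all 13647. Each called gene named in the report passed the same test. In 2 genes with 1 locus the responses ran in opposite directions, each by at least 1 on the log2 scale. ORA47 had a response of -1.49 in sid2 and 1.16 in Col-0, a difference of -2.64 that held without any 1 array. The untreated Col-0 signals of ORA47, 14.6 and 16.6 units, lie under the filter level, and its difference was -2.15 with the pseudocount. AT5G49430, of the WD40 and bromodomain kind, had 18.3 and 14.5 units in sid2 after avrB, 39.1 and 33.5 units in untreated sid2, 30.4 and 26.8 units in Col-0 after avrB and 5.54 and 13.4 units in untreated Col-0. Its responses differed by -2.88 (limma adjusted p = 0.0273). Its signals lie near the filter level of 20.2 units, and its call was lost when any 1 array other than array 2 of untreated Col-0 was left out, with limma adjusted p between 0.0611 and 0.113. Groups of 2 arrays are too small for a search for outlying arrays.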

How the results depend on the processing

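For the difference between the sid2 and Col-0 responses, the count of 355 stayed within 1.5 times under quantile normalization (322), without a filter (302), with the dimmest 60% left out (366), with the pseudocount (426), with only the 8 arrays (463) and without a size minimum (376). Without a variance trend it was 222, with 173 higher and 49 lower. Leaving out 1 array gave 203 to 451 calls, 157 to 285 higher and 41 to 166 lower. The lowest totals came without array 1 of sid2 after avrB (203) and arrays 1 and 2 of Col-0 after avrB (213 and 214), which also took the higher calls to 157, 172 and 168. The 166 lower calls came without array 1 of untreated Col-0. Lower calls fell to 53 and 54 without array 1 or 2 of untreated sid2, 41 and 46 without array 1 or 2 of Col-0 after avrB, and 46 and 50 without array 1 or 2 of sid2 after avrB. Against atgsnor1-3 the totals ran from 379 to 1045, with 233 to 541 higher and 138 to 523 lower. Its totals moved most without array 1 or 2 of sid2 after avrB (379 and 424), array 2 of atgsnor1-3 after avrB (426) and array 2 of untreated sid2 (429), and its lower calls reached 523 without array 1 of untreated atgsnor1-3. Against atgsnor1-1 they ran from 58 to 166, with 43 to 132 higher and 15 to 34 lower, and totals under 100 came without array 1 or 2 of sid2 after avrB (82 and 74), array 1 or 2 of untreated atgsnor1-1 (92 and 94) and array 1 of atgsnor1-1 after avrB (58). The cause was not tested.

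Across 49 named genes and their alternatives, 574 of 718 values kept direction and call, 144 lost the call and 0 changed sign. Since the genes were called on these data, a kept sign was likely beforehand. With the dimmest 60% left out only 32 of the 49 were still tested, and these kept their calls. Without a variance trend 15 genes lost their calls, among them XTH18, CCR2, CML41, NDB2, PRXR1, GT72B1 and PDF1.2, and without a filter 8 did, among them CCR2, PRXR1 and AT5G49430. With the pseudocount AT3G13610 alone did. Quantile normalization ended the call of CCR2 and 3 others, and the fit of only the 8 arrays that of AT5G49430 and 3 others. The replicate numbers did not pair the arrays: deviations of arrays with the same number correlated with r between -0.15 and 0.09. With the replicate block 348 probe sets were called, 261 higher and 87 lower, and CCR2 and PRXR1 were among 4 named genes that lost their calls. Against atgsnor1-3 the block gave 671 calls and against atgsnor1-1 158. Low signal limits the size of the largest differences: 65 of the 355 had a group mean under 20.2 units.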

Other observations

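The genes below lie outside the lists and were chosen after their values were seen, so they stand as single genes and not as a group. AT1G57630, which encodes a TIR-domain protein, had 1441 and 1445 units in sid2 after avrB, 19.9 and 15.7 units in untreated sid2, 1229.6 and 1713 units in Col-0 after avrB and 120.3 and 164 units in untreated Col-0. The avrB arrays of the genotypes overlapped, and the untreated ones did not. The TIR-domain genes AT1G57630, AT1G66090 and AT2G20142 had differences of 2.98 ± 0.53, 2.55 ± 0.30 and 2.38 ± 0.38. AT1G66090 was higher in sid2 than in Col-0 also after avrB, by 1.46 ± 0.21. The EF-hand gene AT3G47480 stood at 2.73 ± 0.28, the receptor-like kinase genes AT1G51890, AT1G35710 and AT4G08850, the last known as MIK2, at 2.25 ± 0.42, 2.01 ± 0.28 and 1.53 ± 0.24, and the chaperone gene Hsp70-2 (AT5G02490) at 1.84 ± 0.26. AT1G57630 responded less in sid2 than in atgsnor1-3, by -3.30 ± 0.53 (limma adjusted p = 0.002), or -1.12 with the pseudocount, its untreated atgsnor1-3 arrays being at 3.09 and 0.872 units.

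Among called probe sets with a lower response in sid2, again chosen after their values were seen, EXLA1 (AT3G45970), which encodes an expansin-like protein, had 378 and 507 units in sid2 after avrB, 213 and 325 units in untreated sid2, 267 and 285 units in Col-0 after avrB and 50.6 and 31.3 units in untreated Col-0. Untreated Col-0 was the low one of these groups, and the response was 0.73 in sid2 and 2.79 in Col-0, which differ by -2.06 ± 0.39 (limma adjusted p = 0.00653). AT3G62550, of the universal stress protein family, had 384 and 371 units in sid2 after avrB, 2398 and 2179 units in untreated sid2, 443 and 443 units in Col-0 after avrB and 1048 and 1129 units in untreated Col-0. Its signal was lower after avrB in both genotypes, from a higher start in sid2, and its difference was -1.30 ± 0.20 (limma adjusted p = 0.00163). All calls in these paragraphs for the difference between sid2 and Col-0 held without any 1 array.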
